A study of Mus musculus with 4 samples.

Results

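The genes described here are 10 mouse genes of autophagy, read from 55416 genes listed in each of 4 RNA-seq libraries. They are the cargo receptor genes Sqstm1 and Nbr1, the LC3 and GABARAP genes Map1lc3a, Map1lc3b, Gabarapl1 and Gabarapl2, the core machinery genes Ulk1, Becn1 and Atg5, and the transcription factor gene Tfeb. They were chosen by name, and each gene's value is the sum of TPM (transcript abundance per length, scaled to the same total in every library) over its annotated transcripts. All 10 were among the 16304 genes with a mean of at least 0.5 TPM, the minimum used for testing.

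The cells were C2C12, an established line of mouse myoblasts. One group of 2 libraries came from cells transfected with wild-type lamin A, and the other group of 2 came from cells transfected with K97E lamin A, a mutant that the series' design text ties to dilated cardiomyopathy. Every culture received 3 µg of DNA with the lipid reagent Lipofectamine 2000 and was collected 24 h later, so both groups carry a transfected lamin A. No untransfected or empty-vector cells were analysed here, and the labels do not name the plasmid, its promoter or the share of cells that took it up. The titles of the K97E libraries spell the line C1C12, whereas their cell line label reads C2C12. The labels call the libraries biological replicates without naming separate cultures, so the p-values measure the spread between these libraries, which may be technical.

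Autophagy encloses cytoplasm, protein aggregates and organelles in a membrane that closes around them and then fuses with the lysosome. The ULK1 kinase starts the process, the lipid kinase complex that holds Beclin 1 marks the site where the membrane grows, and the ATG5 conjugate helps to attach proteins of the LC3 and GABARAP family to that membrane. Cargo receptors such as p62 and NBR1 hold ubiquitin with one end and LC3 or GABARAP with another, and are degraded together with what they carry. Skeletal muscle relies on this route to clear damaged proteins and mitochondria. Transcript levels show neither the flux through the pathway nor the lipid-bound share of LC3.

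Map1lc3a and Map1lc3b encode near relatives, so exon 3 of each is shown to let a reader see how far reads can tell them apart. This exon is wholly coding and 107 bases long in both genes, at chr2:155119018-155119124 and chr8:122322725-122322831 of GRCm39, the build of the files. The sequences were read from the GENCODE M21 transcripts ENSMUST00000029128 and ENSMUST00000034270, and capitals mark the bases that differ between them.
Map1lc3a exon 3: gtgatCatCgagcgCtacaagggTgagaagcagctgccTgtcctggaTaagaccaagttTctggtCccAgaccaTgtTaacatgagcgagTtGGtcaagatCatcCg
Map1lc3b exon 3: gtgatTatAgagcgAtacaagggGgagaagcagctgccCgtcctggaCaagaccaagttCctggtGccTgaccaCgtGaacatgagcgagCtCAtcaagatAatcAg
The pair differed at 16 bases and was 85.0% identical. Across the 5 LC3 and GABARAP genes, Gabarap included, the longest run of identical bases between the most abundant transcripts of any pair was 17 bases, for Gabarap and Gabarapl1. It was 15 bases for Map1lc3a and Map1lc3b. Reads were 100 bases long, which is longer than any of these runs.

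A promoter is shown for Atg5 because TFEB, itself one of the 10 gene products, binds the letters CACGTG that form the core of its site in lysosomal and autophagy promoters. RefSeq promoters of 300 bases (250 before and 50 after the start, GRCm38.p6) were found for 8 of the 10 genes, in 11 entries. Map1lc3a and Becn1 had no entry. CACGTG, which reads the same on both strands, occurred in 1 of the 8, Atg5, and in 7.15% of all 32851 promoters in the table. The window at chr10:44268313-44268342 on the plus strand, with the motif in capitals, begins the motif at base -14 from the start site.
Atg5 promoter window: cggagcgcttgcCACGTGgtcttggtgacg
A match of letters is a description and not evidence of binding.

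The libraries held between 89.6 and 115.6 M estimated reads (M, 1e6; computed from the deposited coverage) and 14463 to 14684 genes at 1 TPM or more. Lmna, the gene of the transfected protein, stood at 558, 596, 660 and 629 TPM in wild-type 1, wild-type 2, K97E 1 and K97E 2. Its difference was 0.10 (log2, SE 0.10, limma adjusted p = 0.965), and transcripts of the plasmid could not be separated from those of the cell. Of 7 myoblast markers 6 reached 0.5 TPM, with summed levels of 4303 to 4853 TPM. Most of that sum was Vim, at 3684 to 4174 TPM, followed by Des at 384 to 467 TPM. Myod1 stood at 4.56 to 4.96 TPM, and Myog was at 0 in 3 libraries and at 0.096 TPM in the other. Leukocyte markers summed to 3.32 to 5.74 TPM, nearly all of it Cd68 at 3.17 to 5.48 TPM, with Adgre1 at 0 in all 4 libraries. Epithelial markers summed to 0.192 to 0.393 TPM with Cdh1 at 0 throughout. Neural markers summed to 4.19 to 7.12 TPM, nearly all of it Tubb3, with Sox10 at 0. Endothelial markers summed to 17.4 to 20.7 TPM, of which Cdh5 gave 17.1 to 20.3 TPM while Pecam1 stayed at or below 0.159 TPM. Fewer cells of a type and less RNA per cell cannot be told apart in such bulk samples.

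The wild-type pair correlated at 0.985 over 16304 genes (Pearson, log2 scale), the K97E pair at 0.991 and pairs across groups at 0.987 to 0.99. The lowest values were those of wild-type replicate 1 with wild-type replicate 2 (0.985) and with K97E replicate 1 (0.987). With K97E replicate 2 it reached 0.989. Wild-type replicate 1 stood apart in another measure, its relation to the GC content of the transcript. Across 11173 genes with a mean of at least 5 TPM the Spearman correlation of a library's deviation from the other 3 with GC content was -0.338 in wild-type replicate 1, against 0.086, 0.218 and 0.212 in wild-type replicate 2, K97E replicate 1 and K97E replicate 2. These are correlations across genes, which are not independent replicates. Of the 10 autophagy genes, 5 had their lowest scaled value in wild-type replicate 1 and 0 their highest, whereas 33.2% of all tested genes were lowest there and 33.0% highest. Wild-type replicate 2 held the highest value of 6 of the 10, against 21.6% of all tested genes.

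None of the 10 genes passed the test for a difference between K97E and wild-type lamin A. Differences between groups were fitted with limma on log2(TPM + 0.5) after median-of-ratios scaling, over all 16304 genes. The p-values were adjusted by the Benjamini-Hochberg method, and the threshold was 0.05. The adjusted p of the 10 genes lay between 0.965 and 0.976, and 0 of 10 reached an unadjusted p of 0.05. Over all tested genes 1 passed the adjusted threshold, which is 0.00613%, and 3.68% had an unadjusted p under 0.05. The 1 gene that passed was Mfsd4a, named here after its values were seen. Of the 10 genes 5 were fitted higher and 5 lower, with a median difference of -0.0011 on the log2 scale and a median size of 0.073 regardless of sign. All tested genes had a median of -0.0017 and a median size of 0.105. With TPM as deposited, without further scaling, 7 of the 10 were higher and their median was 0.057, beside 0.052 for all tested genes.

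The 95% intervals give the range of change that the fit to these 4 libraries covered for each gene. The lowest lower bound among the 10 genes was a fold of 0.777, for Ulk1, and the highest upper bound was a fold of 1.84, for Map1lc3a. In this fit a change of 2-fold in either direction lay outside the interval of all 10. The intervals hold for single genes and rest on the spread between these libraries, which may be technical. They therefore do not exclude a change of that size in the cells. They also depend on the libraries kept: without wild-type replicate 2 the Map1lc3a difference was 0.64 (log2). An exact permutation test of 2 against 2 libraries cannot go below 0.333 (two-sided), so none is given for single genes.

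**Figure D1:**
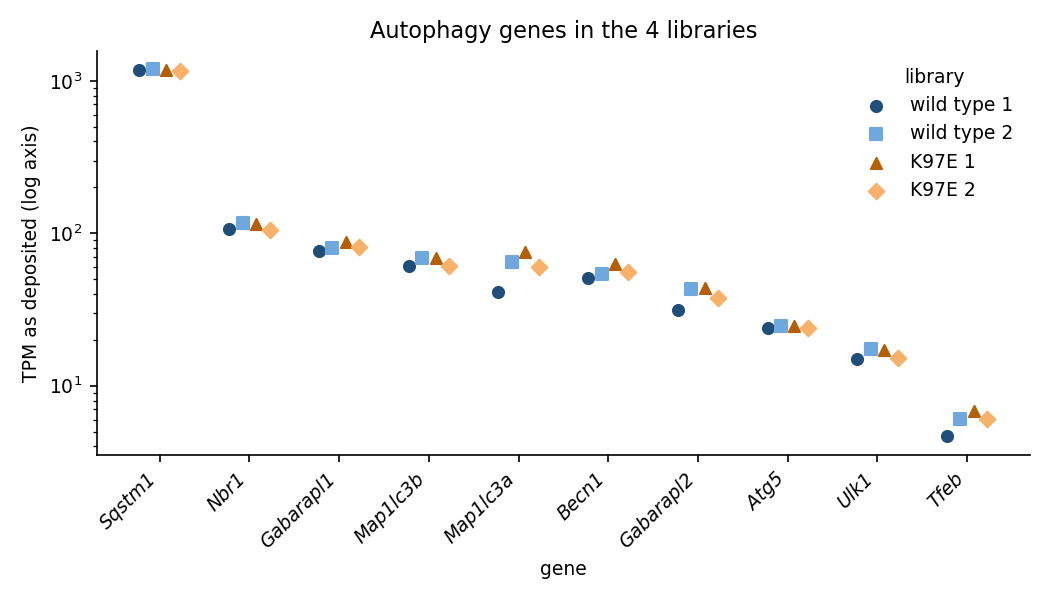
TPM of the 10 genes in each of the 4 libraries, on a log axis, with 1 point per library and genes ordered by mean level. Sqstm1 has a mean of 1179 TPM and Tfeb of 5.90 TPM, and for Map1lc3a, Gabarapl2 and Tfeb the wild-type 1 point lies below the other 3.

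Levels per transcript length spanned a wide range. The order of mean TPM was Sqstm1, Nbr1, Gabarapl1, Map1lc3b, Map1lc3a, Becn1, Gabarapl2, Atg5, Ulk1 and Tfeb. Neighbours in this order had separate ranges over the 4 libraries, except that the ranges of Map1lc3b and Map1lc3a and those of Map1lc3a and Becn1 overlapped. Sqstm1 ranked 98 by mean TPM among all genes, and Tfeb ranked 10908.

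Ulk1 (ENSMUSG00000029512, chr5:110932354-110957963) encodes the kinase that starts autophagosome formation when nutrients or energy run low. It stood at 14.9 TPM in wild-type 1, 17.5 in wild-type 2, 17.1 in K97E 1 and 15.1 in K97E 2. The K97E libraries lay inside the wild-type range. The difference was -0.06 (log2, SE 0.12, 95% interval -0.36 to 0.24). It was 0.05 without wild-type replicate 2. The 5213-base coding transcript ENSMUST00000031490 carried 80.1% of Ulk1 TPM, at 11.5, 13.5, 14.7 and 11.98 TPM in the same order of libraries.

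A shorter coding transcript of Ulk1, ENSMUST00000200299, held 10.3% of the gene's TPM. It stood at 2.43, 2.04, 0.863 and 1.29 TPM, so both K97E libraries lay below both wild-type libraries, as did 18.3% of all 38950 tested transcripts on the scaled values. Its difference was -0.85 (log2, SE 0.27, limma unadjusted p = 0.036, adjusted p = 0.958), which did not pass the test. The difference ran from -1.07 to -0.63 over the alternatives tried. Its sign could hardly turn under them, because both K97E values lay below both wild-type values, so this adds no further support.

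Becn1 (ENSMUSG00000035086, chr11:101176778-101193112) encodes Beclin 1, the scaffold of the lipid kinase complexes that start membrane growth. Its wild-type libraries gave 50.7 and 54.2 TPM, and K97E 1 and K97E 2 gave 63.0 and 56.0 TPM. Both K97E values were above both wild-type values, on the deposited scale and after scaling. The difference was 0.12 (log2, SE 0.09, 95% interval -0.11 to 0.35, limma unadjusted p = 0.239) and did not pass the test.

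The Becn1 transcripts did not all follow the gene's total. The main coding transcript ENSMUST00000130916 gave 32.9, 33.0, 26.9 and 31.4 TPM (log2 -0.24, SE 0.15, limma adjusted p = 0.958). Both K97E libraries lay below both wild-type libraries, as for 18.3% of all 38950 tested transcripts on the scaled values. The retained-intron transcript ENSMUST00000139997 gave 5.66, 11.9, 22.8 and 7.12 TPM, and its high value was in K97E replicate 1 alone. Retained-intron transcripts together made up 19.5, 28.6, 43.5 and 17.97% of Becn1 TPM. The exon of ENSMUST00000139997 that keeps an intron, chr11:101184827-101185990, had a mean coverage of 5.64, 9.35, 14.1 and 6.09 on the TPM scale, counting this transcript alone. All transcripts together gave 73.6, 89.8, 80.6 and 90.4 in the spliced part at chr11:101184868-101184973. Without K97E replicate 1 the difference of ENSMUST00000139997 was -0.22, against 0.55 (log2, SE 0.69) with all libraries. Of the 7065 exon bases annotated for Becn1, 3104 are shared with Cntd1, which averaged 0.207 TPM.

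Atg5 (ENSMUSG00000038160, chr10:44144354-44240287) encodes the protein that is joined to ATG12 in the conjugate that lipidates LC3. It stood at 23.9, 24.6, 24.7 and 23.9 TPM, a narrow range in which the groups overlapped. After scaling both K97E libraries lay below both wild-type libraries, by a difference of -0.05 (log2, SE 0.09, 95% interval -0.28 to 0.17). The sign turned to 0.003 with TPM as deposited. One coding transcript, ENSMUST00000039286, held nearly all of the Atg5 TPM.

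The LC3 and GABARAP proteins are attached to the growing membrane and recruit cargo receptors. Map1lc3a (ENSMUSG00000027602, chr2:155118217-155119993) stood at 41.2 TPM in wild-type 1, 64.5 in wild-type 2, 75.2 in K97E 1 and 60.0 in K97E 2. The low library was wild-type 1, and the value of wild-type 2 lay between those of the K97E libraries. Its difference of 0.32 (log2, SE 0.22, 95% interval -0.24 to 0.88, limma unadjusted p = 0.204) was the largest in size among the 10 genes. Leaving out wild-type replicate 1 brought it to -0.0018. Leaving out wild-type replicate 2 brought it to 0.64, with a limma adjusted p of 0.28.

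The low Map1lc3a value lay in its last exon. Exon 4 (599 bases, chr2:155119395-155119993), which holds 160 coding bases and the 3′ UTR, had a coverage of 37.7 in wild-type 1 against 72.5, 83.0 and 65.6 in wild-type 2, K97E 1 and K97E 2, on the TPM scale. That is -0.97 on the log2 scale relative to the mean of the other 3 libraries. Exons 1, 2 and 3 lay between -0.18 and 0.01 by the same measure. Exon 4 of Map1lc3b did not stand out in the same way, at -0.11 against -0.23 to -0.18 for its exons 1 to 3. The GC content of Map1lc3a was 63.1%, higher than in 98.8% of tested genes, and GC-bin centring (an alternative chosen after seeing the data) gave a difference of 0.24. By exon, GC content was 73.7, 64.3 and 51.4% in exons 1, 2 and 3 and 58.9% in exon 4, the exon with the low coverage. The part of GC content in the low wild-type 1 value was not tested.

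**Figure D2:**
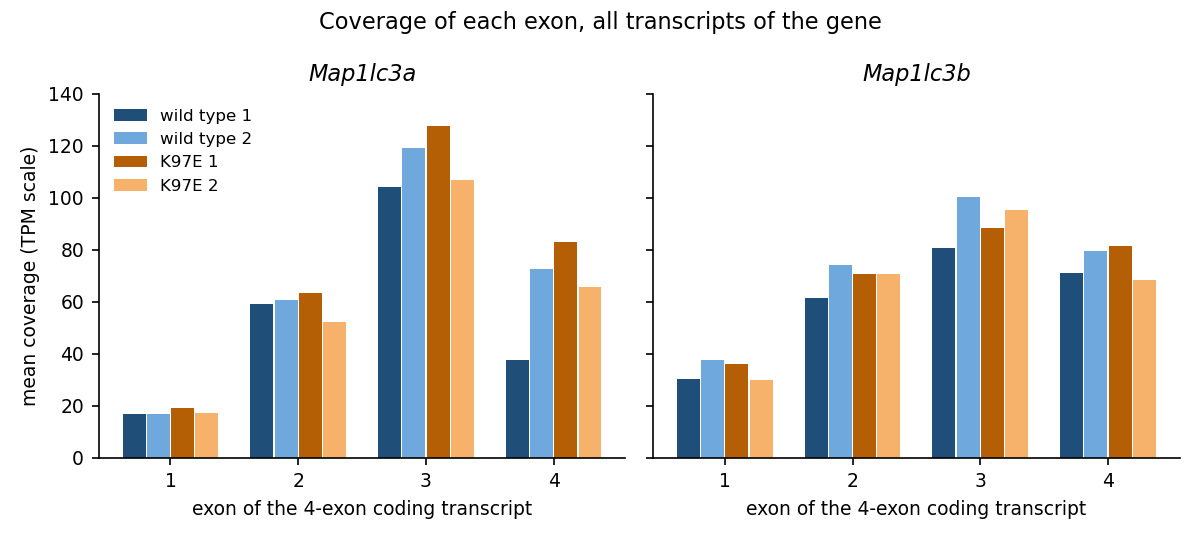
Mean coverage, on the TPM scale, of the 4 exons of the main coding transcript of Map1lc3a and of Map1lc3b, summed over all transcripts of the gene, with 1 bar per library. In exon 4 of Map1lc3a the wild-type 1 bar stands at 37.7 and the other bars at 65.6 to 83.0, whereas in exons 1 to 3 the 4 bars are close together.

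Map1lc3a was split over a coding transcript, ENSMUST00000029128, and a processed transcript without a coding frame, ENSMUST00000154596. The coding transcript gave 32.7, 44.998, 43.9 and 38.0 TPM (log2 difference 0.03, SE 0.20). The processed transcript gave 8.51, 16.3, 31.2 and 22.0 TPM, so both K97E libraries lay above both wild-type libraries. Its difference was 1.06 (log2, SE 0.38, 95% interval -0.02 to 2.15, limma unadjusted p = 0.053, adjusted p = 0.958), and it ran from 0.61 with wild-type replicate 1 left out to 1.51 with wild-type replicate 2 left out. This transcript held 32.4% of the Map1lc3a TPM. Of all 38950 tested transcripts 15.2% were likewise higher in both K97E libraries on the scaled values.

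Map1lc3b (ENSMUSG00000031812, chr8:122317100-122325499), whose protein is the usual marker of autophagosomes, stood at 61.0, 68.7, 69.3 and 61.2 TPM. Each group held 1 library near 61 TPM and 1 near 69 TPM. The difference was -0.05 (log2, SE 0.10, 95% interval -0.30 to 0.21) and turned to 0.0083 with TPM as deposited. A retained-intron transcript, ENSMUST00000180548, was credited with 38.3% of the gene's TPM. Its exon that keeps the intron, chr8:122320229-122322831, had a mean coverage of 6.58, 7.98, 7.93 and 6.24 on the TPM scale, counting this transcript alone. Exon 3, which lies within it, had 80.8, 100.2, 88.4 and 95.2 summed over all transcripts, which is not the same measure.

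Gabarapl1 (ENSMUSG00000030161, chr6:129510123-129519309) and Gabarapl2 (ENSMUSG00000031950, chr8:112667335-112680244) encode 2 of the GABARAP proteins, which act mainly at late steps of autophagosome formation. Gabarapl1 had 76.6 and 80.6 TPM with wild-type lamin A, and 87.7 and 81.4 TPM with K97E. The groups did not overlap on the deposited scale but did after scaling. The difference was 0.05 (log2, SE 0.09, 95% interval -0.17 to 0.26). Of the 2013 exon bases of Gabarapl1, 570 are shared with 1700101I11Rik, which averaged 0.196 TPM. Gabarapl2 stood at 31.4, 43.3, 43.9 and 37.7 TPM, with the low value again in wild-type 1. Its difference of 0.08 (log2, SE 0.17, 95% interval -0.33 to 0.50) became -0.15 when wild-type replicate 1 was left out and 0.31 when wild-type replicate 2 was. Its GC content of 45.3% was not high, and GC-bin centring gave a difference of 0.11.

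With Gabarap, the most abundant gene of the family, the 5 genes summed to 545, 596, 626 and 550 TPM. Gabarap stood at 335, 339, 349 and 310 TPM (log2 difference -0.09, SE 0.10, limma adjusted p = 0.965). Its share of the family sum was 61.5% in wild-type 1 and 56.9, 55.9 and 56.3% in wild-type 2, K97E 1 and K97E 2. Map1lc3a made up 7.56% of the sum in wild-type 1 and 10.8, 12.02 and 10.9% in the others. For both genes the share in wild-type 1 lay farther from the other 3 libraries than those lay from each other.

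Sqstm1 (ENSMUSG00000015837, chr11:50090193-50101654) encodes p62, the receptor that gathers ubiquitinated cargo and that also binds KEAP1. Its level was 1178 TPM in wild-type 1, 1193 in wild-type 2, 1185.5 in K97E 1 and 1158 in K97E 2. The deposited values overlapped, and after scaling both K97E libraries lay below both wild-type libraries. The difference was -0.08 (log2, SE 0.11, 95% interval -0.36 to 0.21, limma adjusted p = 0.965), a fold of 0.949. Leaving out any 1 library gave -0.09 to -0.06.

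The Sqstm1 value rested on an estimated 105820 to 132440 reads per library. The 8 exons of its main transcript ENSMUST00000102774 differed between groups by -0.09 to 0.14 on the log2 scale. That transcript held 84.9% of Sqstm1 TPM and ENSMUST00000015981, also coding, held 14.01%. Of the 3356 exon bases of Sqstm1, 580 are shared with Mrnip, which averaged 3.79 TPM.

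Nbr1 (ENSMUSG00000017119, chr11:101442975-101472777) encodes a receptor built much like p62, which takes part in the clearance of aggregates and peroxisomes. It stood at 107, 117, 116 and 106 TPM, and the K97E values lay within or just below the wild-type range. The difference was -0.07 (log2, SE 0.09, 95% interval -0.30 to 0.16). The gene was divided among 21 annotated transcripts, of which 5 held at least 10% each. Of these, ENSMUST00000107213 gave 32.9, 51.5, 52.4 and 28.003 TPM and ENSMUST00000103098 gave 18.2, 5.75, 16.4 and 8.94 TPM. Both varied more over the libraries than the sum of all Nbr1 transcripts did, and in neither were the K97E libraries set apart from the wild-type libraries. The coding transcript ENSMUST00000103099, with 19.0% of the gene's TPM, gave 20.3, 19.0, 22.9 and 22.3 TPM. Both K97E libraries lay above both wild-type libraries, as did 15.2% of all 38950 tested transcripts on the scaled values. The difference of this transcript was 0.14 (log2, SE 0.12, limma adjusted p = 0.958), which did not pass the test.

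Tfeb (ENSMUSG00000023990, chr17:48047955-48103344) encodes the transcription factor that drives lysosomal and autophagy genes when it enters the nucleus. It stood at 4.65, 6.07, 6.85 and 6.05 TPM, with wild-type 1 the lowest and wild-type 2 level with K97E 2. The difference was 0.20 (log2, SE 0.16, 95% interval -0.21 to 0.60, limma unadjusted p = 0.268). It was 0.02 with wild-type replicate 1 left out and was 0.37 with wild-type replicate 2 left out. Tfeb was the least covered of the 10 genes, with an estimated 436 to 801 reads per library. Its GC content was 63.2%, higher than in 98.9% of tested genes, and GC-bin centring gave 0.12. Retained-intron transcripts made up 7.03 and 7.77% of Tfeb TPM with wild-type lamin A and 0.96 and 1.07% with K97E. None of these transcripts was abundant enough on its own to be tested. The shares are small parts of the gene with the lowest TPM of the 10. They were not themselves tested and were not compared with those of other genes.

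**Figure D3:**
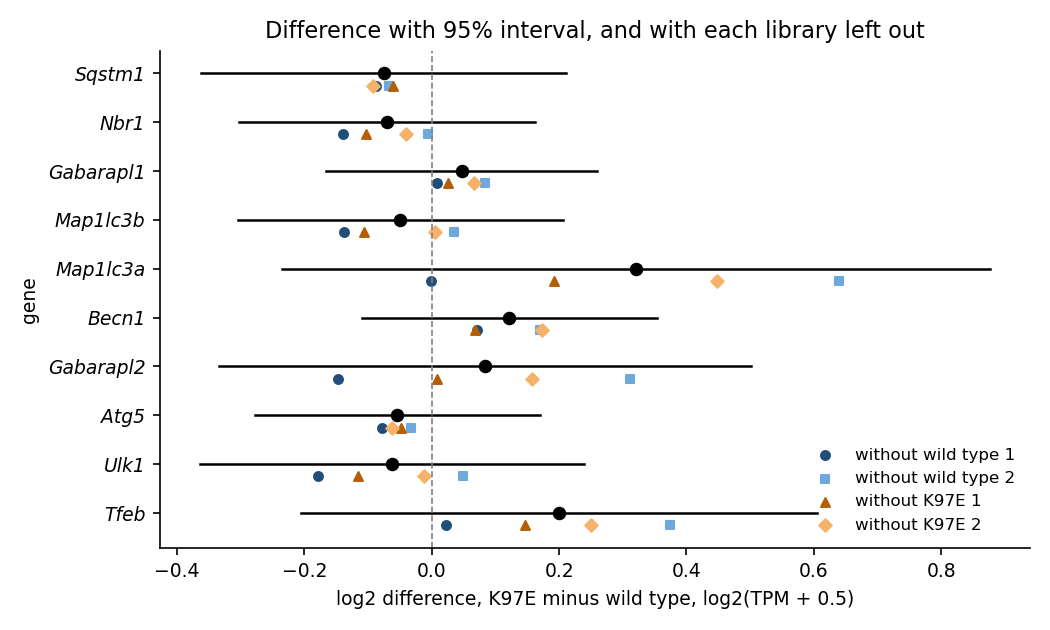
Log2 difference, K97E minus wild type, on scaled log2(TPM + 0.5), for each of the 10 genes (black point) with its 95% interval (line), and the same difference with 1 library left out (coloured points). Every interval crosses 0, and for Map1lc3a the points run from -0.0018 without wild-type 1 to 0.64 without wild-type 2.

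**Figure D4:**
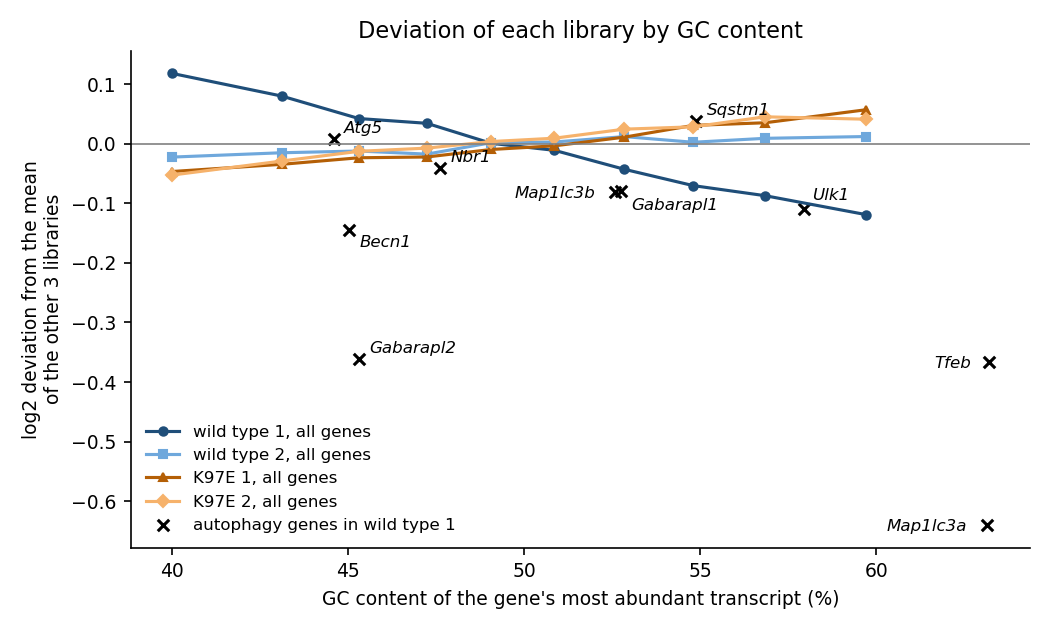
Median log2 deviation of each library from the mean of the other 3 in 10 bins of the 11173 genes with a mean of at least 5 TPM, by GC content of the most abundant transcript (lines), with the deviation of each of the 10 genes in wild-type 1 (crosses). The wild-type 1 line falls with GC content while the other lines rise slightly. Of the 10 genes, Map1lc3a, Tfeb and Gabarapl2 have the lowest deviations in wild-type 1, at -0.64, -0.37 and -0.36. These values are not distances from the line. Others such as Becn1 also lie below the wild-type 1 line.

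Of the 10 genes, 1 was higher and 2 were lower in both K97E libraries than in both wild-type libraries on the scaled values. Over all tested genes 16.3% were higher and 16.8% lower in this way. On deposited TPM 2 of the 10 were higher and 0 lower, beside 25.9% and 9.72% of all tested genes. The 10 genes have 88 annotated transcripts, of which 39 had a mean of at least 0.5 TPM and were tested. None passed limma's adjusted threshold, nor did any of all 38950 tested transcripts (0.0%). An unadjusted p under 0.05 was found for 2 of the 39, 1 of Gabarapl1 and 1 of Ulk1, and for 1793 of all tested transcripts, or 4.6%.

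The other genes of the pathway were read from 9 lists with 111 genes, all of them tested. None was called, and 4, or 3.6%, had an unadjusted p under 0.05, beside 3.68% of all tested genes. All 4 were lower with K97E (Optn, Calcoco1, Lamp2 and Gla), where 2.54% of all tested genes were lower at that unadjusted p. List medians lay between -0.03 and 0.07 on the log2 scale.

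Optn and Calcoco1 belong to the list of other cargo receptors, of which 7 of 13 genes were fitted higher and 6 lower. Optn, the receptor of damaged mitochondria and bacteria, had 28.2 and 27.97 TPM with wild-type lamin A and 25.2 and 23.7 TPM with K97E (log2 -0.25, SE 0.09, limma unadjusted p = 0.032, adjusted p = 0.965). Calcoco1, a receptor of endoplasmic reticulum, stood at 133 and 118 TPM against 112 and 107 TPM (log2 -0.26, SE 0.10, limma adjusted p = 0.965). For each, both K97E values lay below both wild-type values, as for 9.72% of all tested genes on deposited TPM and 16.8% on the scaled values. On the scaled values 3 genes of this list were lower and 3 higher in that way.

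Lamp2 and Gla belong to the 30 lysosomal genes, of which 12 were fitted higher and 18 lower, with a median of -0.007 that turned to 0.049 with TPM as deposited. Lamp2, a membrane protein of the lysosome needed for fusion with autophagosomes, had 591 and 602 TPM with wild-type lamin A and 532 and 499.8 TPM with K97E (log2 -0.27, SE 0.10, limma adjusted p = 0.965). The GC content of Lamp2 was 38.7%. Over the alternatives its difference ran from -0.28 to -0.16, and GC-bin centring gave -0.18. Gla, the lysosomal alpha-galactosidase, stood at 42.7 and 47.7 TPM against 37.8 and 39.0 TPM (log2 -0.29, SE 0.10, limma adjusted p = 0.965). Neither passed the test. Both K97E values lay below both wild-type values for each gene, as they did for 9.72% of all tested genes on deposited TPM and 16.8% on the scaled values.

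Upstream, the initiation kinase list had 2 of 4 genes higher and 2 lower. Ulk2, the near relative of Ulk1, stood at 18.04 and 17.5 TPM against 21.3 and 19.97 TPM (log2 0.15, SE 0.09), and the scaffold gene Rb1cc1 had a difference of -0.12 (SE 0.11). Of the class III PI3-kinase list 2 of 7 genes were higher and 5 lower, with Rubcn, an inhibitor of the complex, at 0.06 (SE 0.10) and Nrbf2 at -0.05 (SE 0.10). Of the ATG9 and lipid transfer list 6 of 9 were higher and 3 lower. Its members Vmp1 stood at 514 and 490.3 TPM against 469.7 and 445 TPM (log2 -0.19, SE 0.10), and Atg9a, which encodes the membrane protein that seeds the autophagosome, at 27.1 and 30.1 TPM against 32.9 and 33.1 TPM (log2 0.15, SE 0.10).

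The ubiquitin-like conjugation list, which holds the partners of Atg5, had 4 of 10 genes higher and 6 lower. Atg3, the enzyme that hands LC3 to its lipid, stood at 54.5 and 43.8 TPM against 45.2 and 39.9 TPM (log2 -0.26, SE 0.13, limma unadjusted p = 0.0996), and the high value was that of wild-type 1. Atg4c, which encodes a protease that trims LC3, had a difference of -0.11 (SE 0.10). Of the fusion list 8 of 13 were higher and 5 lower, with Vps18, a tethering subunit, at 0.19 (SE 0.12) and the SNARE gene Vamp8 at -0.16 (SE 0.09).

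The regulators of autophagy had 13 of 16 genes fitted higher, a share of 81.2% where all tested genes had 49.5%, and their median was 0.06. Foxo1, a transcription factor of muscle catabolism, stood at 10.1 and 10.2 TPM against 13.5 and 11.0 TPM (log2 0.20, SE 0.12, limma adjusted p = 0.965), and the AMPK subunit gene Prkag1 had a difference of 0.14 (SE 0.12). No gene of this list had an unadjusted p under 0.05. In the KEAP1-NRF2 list, joined to p62 through its binding of KEAP1, 5 of 9 were higher and 4 lower. Nfe2l2, the gene of NRF2 itself, stood at 198 and 187 TPM against 180.3 and 178 TPM (log2 -0.16, SE 0.09), and Hmox1, an NRF2 target, had a difference of -0.16 (SE 0.13).

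**Figure D5:**
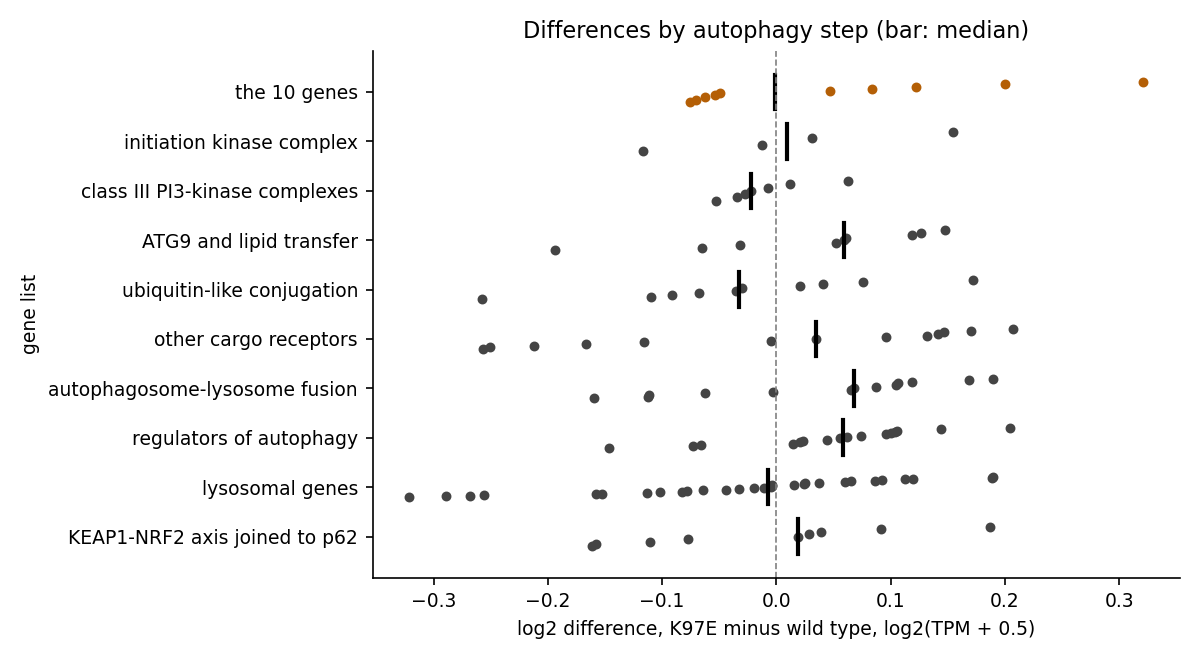
Log2 difference, K97E minus wild type, on scaled log2(TPM + 0.5), for the 10 genes (first line) and for the 111 genes of 9 further lists, with 1 point per gene and a bar at each list's median. The points of the lists lie between -0.32 and 0.21, and medians lie between -0.03 and 0.07.

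The genes whose pattern over the 4 libraries was most like that of Sqstm1 were sought among the 10 genes and the lists, by the Euclidean distance of log2 deviations from each gene's mean. Among 120 genes compared over 4 libraries the nearest were Atg5 at 0.031, Rheb, an activator of the mTORC1 kinase, at 0.033 and Mcoln1, a calcium channel of the lysosome, at 0.036, where the median distance was 0.194. All 3 varied little over the libraries, as Sqstm1 did, and had differences of -0.05, -0.07 and -0.06 on the log2 scale.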

How the data were processed

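RNA of 4 samples of C2C12 cells was sequenced as paired 100-base reads from a stranded kit, per the labels' protocols. HISAT2, StringTie 2.1.7, SAMtools and the build GRCm39 are named in the submitters' processing notes, and the deposited tables list Ensembl release 104 genes. Per the file headers, the authors deposited for each transcript a coverage, an FPKM and a TPM value, and no read counts. Values of all transcripts of a gene were summed. TPM was divided by a median-of-ratios factor (0.98 to 1.04 in the 4 libraries), 0.5 was added, and log2 values of genes with a mean of at least 0.5 TPM were fitted with limma 3.58.1 (R 4.3.3, empirical Bayes with trend, no block). Such log2 differences understate the change of low genes. The deposited coverage signal times transcript length over read length gave the estimated reads, and exon coverage (1 deposited mean per exon of each transcript, summed over transcripts unless stated) was brought to the TPM scale by 1 factor per library. No strand option of the counting is given in the sources used here, so reads of overlapping genes may be shared.

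The members and lists were chosen with earlier results of these data known. The genes named are all 10, their transcripts with at least 10% of the gene's mean TPM, Gabarap, the 2 genes of each list with the smallest unadjusted p at a mean of at least 1 TPM, and the 3 nearest to Sqstm1. GC content and biotypes came from GENCODE M21, an annotation of another build matched by ID alone, for 98.2% of tested genes. The fit was also run on simulated data for the gene comparison (16076 genes). It called 63 of 100 genes given a 2-fold change, 97 of 100 given a 4-fold change and 6 of 15876 left unchanged. The noise was drawn independently for each value from limma's own fitted variances, with no deviation shared across a library. Only genes above a mean log2 value of 2 were changed. These counts therefore check the fit and do not measure its power in the real libraries.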

Additional observations from a re-analysis of the deposited data

How the results depend on the processing

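None of the 10 genes, of their 20 named transcripts or of the 19 named list genes was called under any of the 19 alternatives for genes or 11 for transcripts, with a smallest limma adjusted p of 0.28. The count of called genes, 1 as reported, was 0 without a filter, 2 with TPM as deposited, 2 without the trend, 4 with voom on estimated reads and 0 with the replicate block. Leaving out 1 library gave 0 to 18 called genes: 18 without wild-type replicate 1, 6 without wild-type replicate 2 and 0 without either K97E replicate, where the lone library of a group is assumed to vary like the other group. The labels do not say what a replicate number shares. Same-numbered libraries deviated from their group means with a correlation of -0.137, a single value that with 2 libraries a group does not show how they were made, so the numbers were not used as pairs, and the block called 0 members. The crossed pairing, added after seeing the data like the GC-bin centring, called 30 genes, none of them members. The median difference of the 10 genes ran from -0.08 to 0.07 over the alternatives. Its sign depended on which wild-type library was kept. Dropping wild-type 1 brought this median to -0.0828, and dropping wild-type 2 brought it to 0.0664. In the same fits the medians of all tested genes were -0.0044 and -0.0008. The cause of the differences below was not tested.

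Of the 10 genes 5 kept their sign under every alternative, as did 17 of 19 list genes and 6 of 20 transcripts. With TPM as deposited the difference turned to 0.0083 for Map1lc3b, 0.003 for Atg5, 0.0038 for Nrbf2, 0.0029 for Atg5 ENSMUST00000039286, 0.0466 for Map1lc3b ENSMUST00000034270 and 0.0073 for Sqstm1 ENSMUST00000102774. With 1 library left out the sign also turned for Map1lc3a (-0.0018 to 0.64), Map1lc3b (-0.14 to 0.0357), Gabarapl2 (-0.15 to 0.31), Ulk1 (-0.18 to 0.0498) and Rb1cc1 (-0.24 to 0.0029). Among transcripts it turned for Becn1 ENSMUST00000139997 (-0.22 to 1.33), Gabarapl1 ENSMUST00000032264 (-0.0022 to 0.0716), Gabarapl2 ENSMUST00000034428 (-0.14 to 0.31), Map1lc3a ENSMUST00000029128 (-0.20 to 0.26), Map1lc3b ENSMUST00000034270 (-0.0715 to 0.0466) and ENSMUST00000180548 (-0.34 to 0.0762), Nbr1 ENSMUST00000107213 (-0.57 to 0.25), ENSMUST00000123558 (-0.76 to 0.10), ENSMUST00000103098 (-0.62 to 0.96) and ENSMUST00000107208 (-0.91 to 0.53), Tfeb ENSMUST00000086932 (-0.0699 to 0.52) and Ulk1 ENSMUST00000031490 (-0.0856 to 0.15).

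List medians turned sign with TPM as deposited for the class III PI3-kinase (0.034), conjugation (0.025) and lysosomal (0.049) lists, for the class III PI3-kinase list also with FPKM as deposited (0.005) and voom (0.013), for the lysosomal list also with FPKM as deposited (0.02), quantile normalization (0.009) and voom (0.007), and with GC-bin centring for the initiation (-0.028), conjugation (0.003) and KEAP1-NRF2 (-0.002) lists.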
